A study of Nothobranchius furzeri with 30 samples.

Results

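The N-myc downstream regulated genes (NDRG) form a small family of cytosolic proteins with a fold like that of alpha/beta hydrolases. The family was followed fish by fish in the ageing killifish retina. Members were the loci of the study's annotation named NDRG1 to NDRG4, with or without a paralog letter A or B. There were 6 of them among 24989 annotated loci, namely NDRG1A (XLOC_024423), NDRG1B (XLOC_000155), NDRG2 (XLOC_009497), NDRG3A (XLOC_001876), NDRG3B (XLOC_021874) and NDRG4 (XLOC_019448). Of these, 5 were among the 13975 loci that passed the filter on low counts, and NDRG3B was not. A second name in the same annotation lists NDRG1B as ndrg1. NDRG1B was chosen by its CPM in these fish, which was higher at 18 than at 6 weeks. Its age values are therefore given as a description, without a test, while the other members entered only through their family name, with earlier results of these data known.

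In mammals, NDRG1 is induced by low oxygen, by iron chelation and by p53, and is repressed by N-myc. Its protein is phosphorylated by the kinase SGK1 and then by GSK3, and loss of human NDRG1 causes a demyelinating neuropathy of the Charcot-Marie-Tooth group. NDRG2 is known as a marker of mammalian astrocytes, and NDRG4 is known from neurons and heart. Killifish, like other teleosts, carry paralog pairs of some of these genes.

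Neural retinas came from untreated, wildtype female killifish (Nothobranchius furzeri) of the inbred GRZ-AD strain, after the retinal pigment epithelium (RPE) had been rinsed off. There were 10 fish each of 6, 12 and 18 weeks, both retinas of a fish formed 1 sample, and each sample was a separate fish. Polyadenylated RNA was sequenced from the 3′ end (QuantSeq), so counts carry no scaling for length and levels are compared between ages within a gene, not between genes. Levels are in CPM, counts scaled to the library size and by TMM factors. In bulk tissue fewer cells of a type and less RNA per cell cannot be told apart.

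Counts on loci were 3552371 to 5840792 per fish, and no pair of samples was identical. 18-week fish 1 stood apart in several members, and results that rest on it are given with and without it. Its library stood apart beyond the NDRG loci too. Its share of reads counted as ambiguous was the highest of all fish, at 1.85%, against 1.08% to 1.27% in the other 18-week fish. Its share on no feature, 18.0%, was the lowest of all fish. Its mean log2 CPM was the lowest at 18 weeks for most marker lists, but not for cone or RPE markers. It was lowest for rod, retinal ganglion cell, Müller glia, oligodendrocyte, immune cell, red blood cell and blood vessel markers. The same held for the hypoxia and glucocorticoid lists used below, but not for the iron and lipid transport lists. The source was not tested. RPE marker genes were detected at every age although the RPE had been removed. The summed CPM of all 23 RPE loci ranged from 1181 to 2389 (6 weeks), from 422 to 2581 (12 weeks) and from 499.7 to 1254 (18 weeks), and 13 of the 17 that passed the filter were called lower at 18 than at 6 weeks by both thresholds below. Of the annotated cone markers (8 loci) and retinal ganglion cell markers (14), none was at 0 in all fish of an age.

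NDRG1B was low and variable in young and middle-aged fish and high in every old fish. At 6 weeks, fish 1 to 10 had 23.0, 30.2, 39.9, 71.6, 96.6, 21.7, 23.3, 44.2, 87.4 and 86.8 CPM. At 12 weeks, the fish had 34.1, 42.1, 51.2, 103, 108, 38.8, 48.6, 43.3, 85.4 and 92.4 CPM. At 18 weeks, the fish had 221, 251, 217, 204, 363, 205, 266, 231, 255 and 371 CPM. All 10 old fish lay above all 10 fish of 6 weeks and above all 10 of 12 weeks, while the ranges at 6 and 12 weeks overlapped over most of their width. This lack of overlap was part of what chose the gene. Among all tested loci, the older fish all lay above the younger ones in 1.01% at 18 against 6 weeks and in 0.172% at 18 against 12 weeks.

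**Figure D1:**
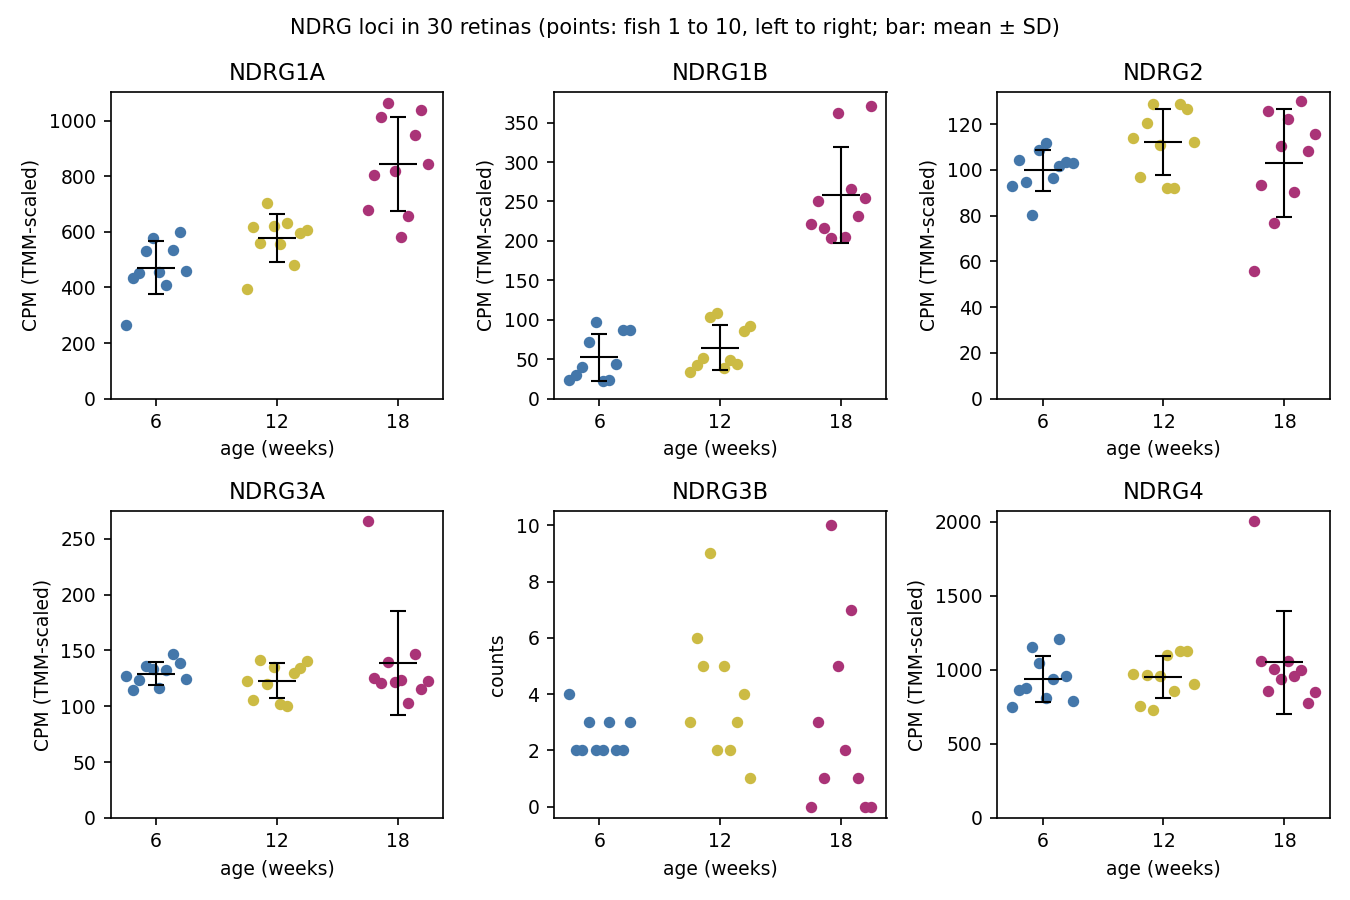
Levels of the 6 NDRG loci in 30 retinas by age in weeks (x axis), in TMM-scaled CPM, or in counts for NDRG3B (y axes). Points are fish 1 to 10 from left to right, and bars are means ± SD of 10 fish, except for NDRG3B, which has no bars. NDRG1B at 18 weeks lies between 204 and 371 CPM, above every younger fish, and 18-week fish 1 is the high point of NDRG3A and NDRG4.

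The mean of the 10 fish was 52.5 CPM in the youngest group, 64.7 CPM in the middle group and 258 CPM in the oldest, where the SD was 60.9 CPM. The old mean was 4.92 times that at 6 weeks and 3.99 times that at 12 weeks. The fitted log2FC was 0.30 (SE 0.244) at 12 against 6 weeks, 2.30 (SE 0.247) at 18 against 6 weeks and 1.997 (SE 0.244) at 18 against 12 weeks. Most of the difference thus lay between the last ages. Raw counts behind these levels ran from 89 to 424, from 152 to 591 and from 872 to 2034 in the same order of ages, so counting error is small beside the spread between fish. That spread narrowed relative to the mean, from a coefficient of variation of 57.2% at 6 weeks to 44.9% at 12 weeks and 23.6% at 18 weeks. With an RPE marker score as covariate, the log2FC was 1.99 (SE 0.362) at 18 against 6 weeks and 0.11 (SE 0.293) at 12 against 6 weeks. That score itself fell with age, with means of 5.33, 4.69 and 4.13 at 6, 12 and 18 weeks. The parts of age and of the score thus cannot be fully told apart in this fit.

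The younger fish fell into a lower and a higher set, and the same label numbers made up the higher set at both ages. The 4 fish with the most NDRG1B at 6 weeks were numbers 5, 9, 10 and 4, between 71.6 and 96.6 CPM, and the other 6 were at 44.2 CPM or less. At 12 weeks, the 4 highest were numbers 5, 4, 10 and 9, between 85.4 and 108 CPM, and the other 6 were at 51.2 CPM or less. At 18 weeks, numbers 10 and 5 were again highest, at 371 and 363 CPM, while number 4 was lowest, at 204 CPM. These are different fish at each age, and neither the labels nor the study's methods say what a number marks. This pattern was noticed in the values, and its source was not tested.

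**Figure D2:**
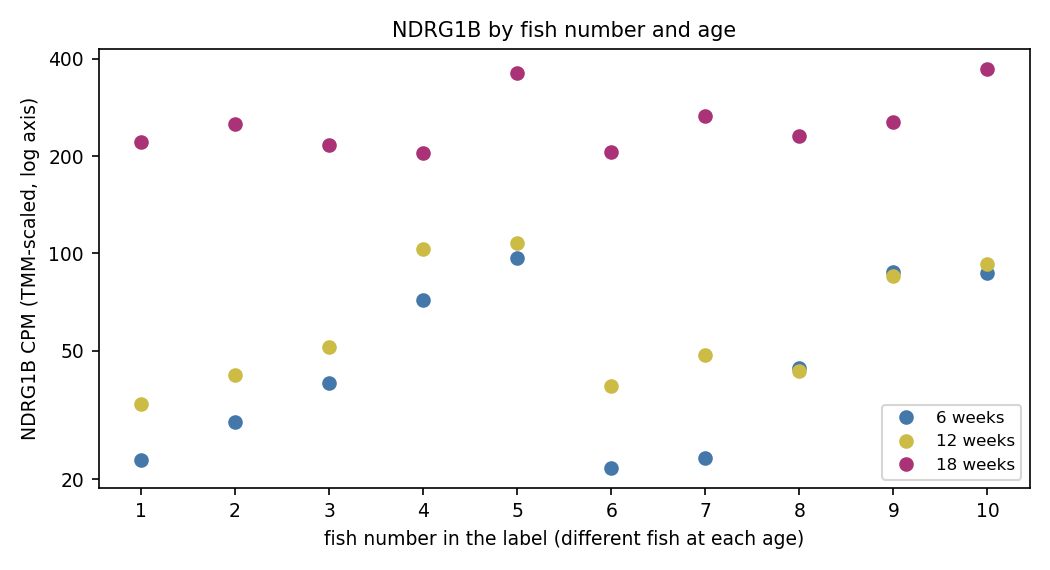
NDRG1B in TMM-scaled CPM (y axis, log scale) against the fish number in the sample label (x axis), with 1 point per fish and 1 colour per age. Numbers 4, 5, 9 and 10 are the 4 highest at 6 weeks and at 12 weeks, and all fish of 18 weeks lie at 204 CPM or more.

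NDRG1A, the other NDRG1 paralog, rose with age by a smaller factor. Its CPM ranged from 265 to 599 in 6-week fish (median 458), from 395 to 702 in 12-week fish (median 601) and from 583 to 1064 in 18-week fish (median 832). Of the old fish, 9 of 10 lay above all 6-week fish, and only 18-week fish 6, at 583 CPM, lay within the range of the youngest group. Against 12 weeks, 7 of the 10 old fish lay above all others. The means were 471 ± 96.5, 577 ± 86.0 and 845 ± 169 CPM (SD, n = 10 each) at the 3 ages.

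The log2FC of NDRG1A was 0.84 (SE 0.118, FDR = 1.09e-06) at 18 against 6 weeks and 0.55 (SE 0.117, FDR = 0.00147) at 18 against 12 weeks in the quasi-likelihood test of edgeR, adjusted over all tested loci. At 12 against 6 weeks it was 0.29 (SE 0.117, FDR = 0.208 in the same edgeR test), which did not pass. To be called, a locus needed an FDR below 0.05 and a log2FC of 1 or more in size, so NDRG1A passed the FDR at both comparisons with 18 weeks but was called in neither. With library size as the only scaling, its log2FC at 18 against 6 weeks was 1.14 (edgeR FDR = 7.13e-09), past both thresholds, and that scaling moved the median of all tested loci from 0.02 to 0.32. Relative to that median, NDRG1A was still higher at 18 weeks. Without 18-week fish 1, the log2FC was 0.87 (edgeR FDR = 1.6e-07).

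NDRG2, NDRG3A and NDRG4 passed the test in no comparison. NDRG2, in mammals an astrocyte gene, was at 80.5 to 112 CPM at 6 weeks (median 102), at 92.1 to 129 CPM at 12 weeks (median 113) and at 55.8 to 130 CPM at 18 weeks (median 109.5). Its groups overlapped at all ages, and the lowest value of all 30 fish was that of 18-week fish 1. The log2FC was 0.17 at 12 against 6 weeks (95% interval -0.04 to 0.38, FDR = 0.480), 0.04 at 18 against 6 weeks (-0.16 to 0.25, FDR = 0.791) and -0.13 at 18 against 12 weeks (-0.33 to 0.08, FDR = 0.478), all from the same edgeR fit. Leaving out 18-week fish 1 moved the last 2 values to 0.11 (edgeR FDR = 0.341) and -0.05 (edgeR FDR = 0.783).

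NDRG3A, a less studied paralog, was at 115 to 147 CPM at 6 weeks (median 130), at 100 to 141 CPM at 12 weeks (median 126) and at 102 to 266 CPM at 18 weeks (median 122.8). All groups overlapped. The value of 266 CPM was again 18-week fish 1, and the next highest old fish was at 147 CPM. The log2FC of NDRG3A at 18 against 6 weeks was 0.10 (95% interval -0.12 to 0.32, edgeR FDR = 0.537), and -0.06 (edgeR FDR = 0.587) without that fish. At 12 against 6 weeks it was -0.07 (-0.29 to 0.15, edgeR FDR = 0.834), and at 18 against 12 weeks 0.17 (-0.05 to 0.39, edgeR FDR = 0.337), or 0.02 (edgeR FDR = 0.897) without that fish.

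NDRG4, known from neurons, was at 750 to 1211 CPM at 6 weeks (median 907), at 730 to 1130 CPM at 12 weeks (median 962) and at 773 to 2006 CPM at 18 weeks (median 978). The old range ran past the younger ones only through 18-week fish 1, at 2006 CPM, while the other 9 old fish were at 1057 CPM or less. The log2FC of NDRG4 was 0.02 (95% interval -0.22 to 0.26, edgeR FDR = 0.973) at 12 against 6 weeks, 0.16 (-0.08 to 0.40, edgeR FDR = 0.342) at 18 against 6 weeks and 0.14 (-0.10 to 0.38, edgeR FDR = 0.483) at 18 against 12 weeks. Without 18-week fish 1, the value at 18 against 6 weeks was 0.003 (edgeR FDR = 0.985) and that at 18 against 12 weeks was -0.004 (edgeR FDR = 0.982). The intervals of NDRG2, NDRG3A and NDRG4 exclude a doubling or halving at any comparison, but not smaller differences.

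NDRG3B was close to the limit of detection and did not pass the filter. Its counts were 2 to 4 per fish at 6 weeks, 25 in all, 1 to 9 per fish at 12 weeks, 40 in all, and 0 to 10 per fish at 18 weeks, 29 in all. It had no read in 3 of the 10 old fish, where 3 counts of the fish's total are the upper limit that a count of 0 allows for counting error. In an edgeR fit without a filter, added after seeing the data, its log2FC was 0.62 at 12 against 6 weeks (95% interval -0.37 to 1.62, FDR = 0.623), -0.09 at 18 against 6 weeks (-1.11 to 0.94, FDR = 0.948) and -0.71 at 18 against 12 weeks (-1.68 to 0.26, FDR = 0.438). None passed, and the intervals are wide enough to include a doubling or a halving in some comparison.

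**Figure D3:**
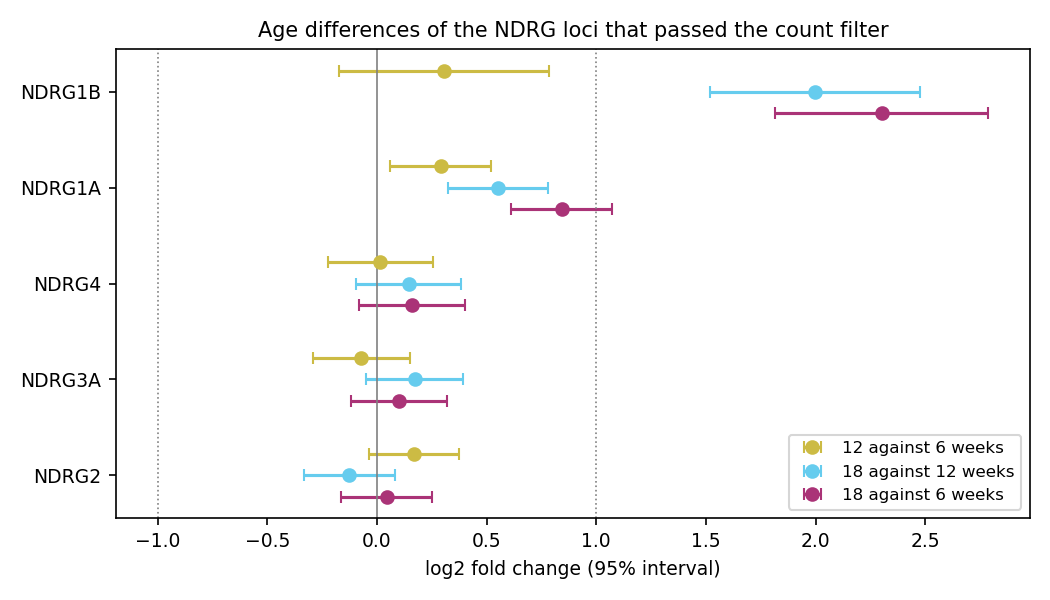
Log2 fold changes between ages (x axis, with 95% intervals from the fit of 30 fish) for the 5 NDRG loci that passed the count filter (y axis), with 1 colour per comparison. Dotted lines mark the log2FC thresholds of -1 and 1. NDRG1B lies at 2.30 and NDRG1A at 0.84 for 18 against 6 weeks, and the intervals of NDRG2, NDRG3A and NDRG4 include 0.

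Of the 4 tested members other than NDRG1B, 1 passed the FDR alone at 18 against 6 weeks and 1 at 18 against 12 weeks, NDRG1A in both cases, and none was called by both thresholds. Over all tested loci, 14% were higher and 15.2% lower past that FDR at 18 against 6 weeks, and 5.19% and 6.93% at 18 against 12 weeks. By both thresholds, 1.31% were higher and 2.03% lower at the former comparison, and 0.258% and 0.766% at the latter. The study itself, at these thresholds, reported more genes higher than lower at 18 against 6 weeks, unlike these TMM-scaled shares. With library size alone, 82.5% of the loci called at that comparison were higher. The source of the difference from the study was not tested. At 12 against 6 weeks no member passed the FDR, as against 1.3% of all loci that were higher and 0.909% that were lower, and 0.336% and 0.165% by both thresholds. The comparisons share fish, so they are not independent of each other.

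Ratios between paralogs within a library do not depend on the scaling and ask whether the members moved by different amounts. The log2 ratio of NDRG1A counts to NDRG2 counts was 2.21 ± 0.33 at 6 weeks and 3.05 ± 0.43 at 18 weeks (SD, n = 10 each), a difference of 0.84 (permutation test, two-sided, adjusted p = 0.00144 over 6 pairs). The ratio to NDRG3A differed by 0.80 (permutation test, adjusted p = 0.00222) and that to NDRG4 by 0.72 (permutation test, adjusted p = 0.00558). The 3 ratios among NDRG2, NDRG3A and NDRG4 differed by -0.04 to -0.12, with adjusted permutation p between 0.468 and 0.93. When 18-week fish 1 was left out, the differences of NDRG2 to NDRG3A, NDRG2 to NDRG4 and NDRG3A to NDRG4 were 0.16, 0.09 and -0.08 (permutation adjusted p = 0.242, 0.551 and 0.402), so the first and second changed sign, and those of NDRG1A were 0.78 to 0.94. NDRG1A was thus higher at 18 weeks also relative to each of these members. As a description, the log2 ratio of NDRG1B to NDRG1A counts was -3.36 ± 0.67 at 6 weeks, -3.26 ± 0.51 at 12 weeks and -1.71 ± 0.43 at 18 weeks (SD, n = 10 each), and the old range, -2.38 to -1.18, lay above both younger ranges by a narrow margin, since the highest 6-week fish was at -2.40.

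Deviations of fish from their own age mean were compared next, because they leave out the difference between age means that chose NDRG1B. The lack of overlap, also part of that choice, depends on these deviations too. The relations of NDRG1B are thus not wholly separate from its choice. In all, 65 relations were computed over 30 fish with permutations within ages and Benjamini-Hochberg adjustment, 10 between members and the rest between a member and the mean log2 CPM (score) of a marker or pathway list. Same-numbered fish of 6 and 12 weeks had like deviations in NDRG1B (r = 0.93), NDRG1A (0.65) and, less so, NDRG3A (0.39). So they had in the retinal ganglion cell (0.92), cone (0.84), red blood cell (0.81), glucocorticoid (0.74), hypoxia (0.45) and rod (0.43) scores. The permutations do not allow for this, so the p-values of relations among these members and scores may be too small. Of the 65, 14 passed an adjusted p of 0.05, and 5 of these 14 also passed without 18-week fish 1. Fish with more NDRG1B than others of their age also had more NDRG1A, with r = 0.54 and rho = 0.55 (permutation adjusted p = 0.0141 and 0.0176). The r of this pair was 0.71 at 6 weeks, 0.67 at 12 weeks and -0.01 at 18 weeks, so it rested on the younger fish. Without the 2 fish farthest from the median of NDRG1A, r was 0.41, and without 18-week fish 1 it was 0.54 (permutation adjusted p = 0.0262).

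NDRG3A and NDRG4 went together with r = 0.75 and rho = 0.57 (permutation adjusted p = 0.0115 and 0.0143). The r was 0.78 at 6 weeks, 0.30 at 12 weeks and 0.91 at 18 weeks. Without the 2 fish farthest from the median of NDRG3A, r was 0.51. Without 18-week fish 1, r was 0.44 and no longer passed (permutation adjusted p = 0.116). The relations of both loci with the rod score, r = -0.64 for NDRG3A and -0.67 for NDRG4 (permutation adjusted p = 0.0199 and 0.00845), also did not pass without that fish or with library size alone as the scaling. The rod list was matched by name and also held RHOA and RHOB, which are small GTPases and not rod genes. With the 13 other loci, r was -0.64 and -0.66 (permutation adjusted p = 0.0185 and 0.0106).

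**Figure D4:**
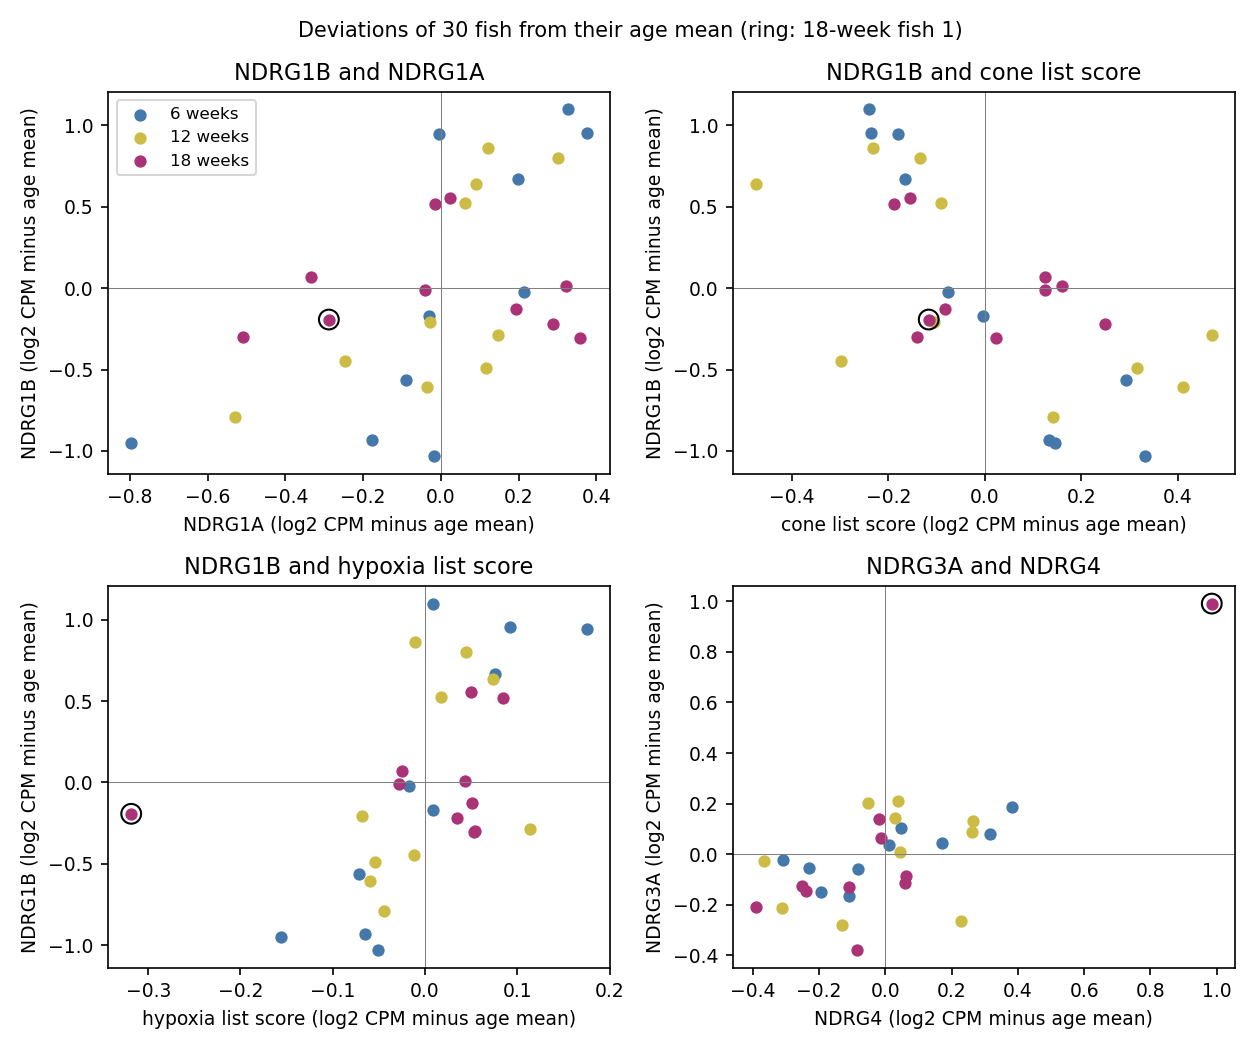
Deviations of 30 fish from the mean of their age in log2 CPM, with NDRG1B on the y axis against NDRG1A, the cone list score and the hypoxia list score on the x axis, and NDRG3A against NDRG4 in the last panel. Points are fish, coloured by age, and the ring marks 18-week fish 1. NDRG1B falls with the cone score (r = -0.69), and NDRG3A and NDRG4 share the ringed fish as their highest.

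The relation of NDRG1B with the cone score was the largest in size that involved NDRG1B. Fish with more NDRG1B had lower cone markers than others of their age, with r = -0.69 and rho = -0.71 (permutation adjusted p = 0.00585 and 0.0091). The r was -0.93 at 6 weeks, -0.63 at 12 weeks and -0.37 at 18 weeks. It was -0.70 both without the 2 fish farthest from the median of the score and without 18-week fish 1. Of the 7 cone loci, 6 had a negative r with NDRG1B. PDE6C, the cone phosphodiesterase, had -0.75, GNAT2, the cone transducin, had -0.50 and CNGB3, a cone channel subunit, had 0.11. The cone score with NDRG3A had r = -0.51 (permutation adjusted p = 0.00585) and passed without 18-week fish 1 too, but with library size alone it was -0.35 (permutation adjusted p = 0.0851) and did not pass. The cone score with NDRG1A had r = -0.13 (permutation adjusted p = 0.574).

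Cone markers were also lower at 18 weeks as a group, which is given beside the NDRG1B levels because both move with age. The summed CPM of all 8 annotated cone loci ran from 6291 to 10298 in the youngest fish, from 5001 to 9636 in the middle group and from 4033 to 5517 in the oldest. Past the FDR alone, 6 of the 7 tested were lower at 18 against 6 weeks, where 15.2% of all loci were, and none was called by both thresholds. PDE6C went from 1004 to 538 CPM (log2FC -0.90, edgeR FDR = 8.62e-07). The part of cone RNA content in the NDRG1B values was not tested.

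The scores for blood, RPE and glia were related to different members. The red blood cell list, whose 4 tested loci are membrane genes rather than globins, had r = 0.53 with NDRG1B (permutation adjusted p = 0.0106), and its loci went both ways, 3 of 4 with a positive r and a range of -0.50 to 0.55. It had r = 0.64 with NDRG2 (permutation adjusted p = 0.0141), which fell to 0.40 without 18-week fish 1 (permutation adjusted p = 0.14). NDRG3A, by contrast, had r = -0.44 with the RPE score and -0.63 with the Müller glia score (permutation adjusted p = 0.0422 and 0.0271), and neither passed without that fish (permutation adjusted p = 0.0793 and 0.282) or with library size alone. The blood vessel score had r = 0.48 with NDRG2 (permutation adjusted p = 0.0363), and 0.31 without that fish (permutation adjusted p = 0.282). NDRG1B had r = -0.16 with the RPE score and -0.13 with the Müller glia score (permutation adjusted p = 0.501 and 0.508), and NDRG1A had 0.05 with the RPE score (permutation adjusted p = 0.827).

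The hypoxia list holds genes that low oxygen induces in mammals, as it does NDRG1. Its score had r = 0.53 and rho = 0.60 with NDRG1B (permutation adjusted p = 0.0115 and 0.0143), at 0.83, 0.48 and 0.26 at 6, 12 and 18 weeks. Without 18-week fish 1, which had the lowest score for its age, r was 0.67 (permutation adjusted p = 0.0127). With NDRG1A, r was 0.51 (permutation adjusted p = 0.032), and 0.52 without that fish (permutation adjusted p = 0.0658). The list did not move as a block. Of its 31 loci, 18 had a positive r with NDRG1B, and the median was 0.08, as against 0.005 over all tested loci. STC2A, a secreted glycoprotein, had the highest r with NDRG1B, 0.57, and BHLHE40, a transcription factor that is also part of the circadian clock, the lowest, -0.70. One of the HK1 loci (XLOC_013221), a hexokinase, had an r of 0.75 with NDRG1A, and the other (XLOC_013437) had -0.02.

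The hypoxia list had loci that passed the test of age in both directions. Of 31 tested loci, 1 was called higher and 1 lower at 18 against 6 weeks (by FDR alone 5 and 5), with a median log2FC of 0.003 beside 0.02 over all tested loci. These counts are to be read beside 1.31% higher and 2.03% lower (14% and 15.2% by FDR alone) over all loci, as are those of the lists that follow. ALDOCA, a glycolytic aldolase, went from 6.23 to 13.3 CPM (log2FC 1.10, SE 0.18, edgeR FDR = 1.57e-05). LOX, the lysyl oxidase of collagen, fell from 2.97 to 1.20 CPM (log2FC -1.27, SE 0.30, edgeR FDR = 0.00141). Of the 9 loci of oxygen sensing, none was called, and 3 were higher by FDR alone. One of them, EGLN3, a prolyl hydroxylase that marks HIF for degradation, had a log2FC of 0.64 (edgeR FDR = 0.00906). EGLN3 is also in the hypoxia list and so is counted in both. HIF1AA, the oxygen-regulated subunit of HIF, went from 87.7 to 102 CPM (log2FC 0.21, edgeR FDR = 0.0513), which did not pass.

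Regulators that act on NDRG proteins or genes in mammals were compared next. Of 17 tested kinases and transcription factors, none was called at 18 against 6 weeks, 3 were higher and 4 lower by FDR alone, which is near the shares over all loci, and the median log2FC was -0.02. SGK1, the kinase that phosphorylates NDRG1, fell from 90.1 to 65.4 CPM (log2FC -0.46, SE 0.09, edgeR FDR = 0.000124). MYCN, which encodes the N-myc protein that gives the family its name, fell from 22.6 to 15.8 CPM (log2FC -0.52, edgeR FDR = 0.00114). The 2 loci named GSK3AB went opposite ways, with a log2FC of 0.46 for XLOC_010555 and -0.37 for XLOC_024624 (edgeR FDR = 0.00385 and 0.0104). Whether reads were divided between these 2 loci was not tested. ARNT2, a partner of HIF, had a log2FC of 0.46 (edgeR FDR = 0.00452).

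The other pathways known to induce NDRG1 had 1 called locus or none at 18 against 6 weeks, too few to set against the shares over all loci. In the p53 list 1 of 15 was called higher and none lower, and this was GADD45AA, a stress sensor, which went from 1.28 to 2.88 CPM (log2FC 1.16, edgeR FDR = 0.00213). In the iron list 1 of 13 was called lower, and this was CP, the ferroxidase ceruloplasmin, which fell from 3.44 to 0.877 CPM (log2FC -1.93, edgeR FDR = 0.000478). The glucocorticoid list also holds SGK1, which was given with the kinases above, so the lists share loci. In the glucocorticoid list none of 13 was called, with 2 higher and 4 lower by FDR alone. Its score had r = 0.51 with NDRG1A within ages (permutation adjusted p = 0.0342), and 0.48 without 18-week fish 1 (permutation adjusted p = 0.0793).

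Lists tied to the known roles of NDRG1 in lipoprotein receptor traffic and myelin were compared as well. Among 11 lipid transport loci, 1 was called higher, APOEB, an apolipoprotein that the study located in immune cells of this retina. APOEB rose from 106 to 341 CPM (log2FC 1.69, SE 0.17, edgeR FDR = 1.92e-09). It was also in the Müller glia list and so entered that score. Unlike that of NDRG1B, its mean was already at 344 CPM at 12 weeks. By FDR alone, 2 were higher and 3 lower. None of 14 oligodendrocyte and myelin loci was called, with 5 higher and 3 lower by FDR alone and a median log2FC of 0.35, beside 14% higher, 15.2% lower and a median of 0.02 over all tested loci.

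The loci whose log2 CPM was most like that of NDRG1B over the 30 fish, among 11209 with a mean of at least 5 CPM, were RD3 (r = 0.93), a regulator of photoreceptor guanylate cyclase, CABZ01081148.1 (0.92), NDUFA4(1OF2) (0.90), a subunit of a respiratory chain complex, PRKACB (2 OF 2) (0.89), a catalytic subunit of protein kinase A, and HTRA1B (0.88), a secreted serine protease. These values include the age difference that chose NDRG1B. After subtracting age means, the highest were RD3 (0.84), RORCB (0.84), a nuclear receptor, OLA.22211 (0.84), CABZ01081148.1 (0.81) and GPSM2 (0.80), which orients the mitotic spindle. Within 18 weeks alone, their r was 0.56, 0.76, 0.42, 0.04 and -0.25 in that order. It was 0.90 to 0.94 at 6 weeks and 0.70 to 0.95 at 12 weeks. These 5 loci also had like values in same-numbered fish of 6 and 12 weeks (r of 0.85 to 0.95). RD3 went from a mean of 178 CPM at 6 weeks and 173 at 12 weeks to 320 at 18 weeks. NDRG1A ranked 34 of 11209 over the 30 fish (r = 0.83) and 159 after subtracting age means. NDRG2, NDRG3A and NDRG4 ranked 3021, 3237 and 5093 by the latter measure.

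In the authors' single-cell data of the killifish retina, pooled over 39140 cells, NDRG4 was listed as detected in 73.4% of cells, NDRG2 in 43.0%, NDRG3A in 36.4%, NDRG1A in 28.8%, NDRG3B in 17.9% and NDRG1B in 8.74%. The median over all loci was 2.06%. These are the authors' pooled values, without a split by cell type or age. The table does not say which cell filter it rests on, its cell total is not that of the study's text, and how doublets were treated is not given in the sources used here. Without the split, the share that free RNA gives in cells that lack a gene was not available for comparison. All members were above the median locus, and NDRG1B was the least often detected of the 6.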

How the data were processed

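Reads of 30 libraries were trimmed by the authors with Trim Galore 0.6.7 and cutadapt 3.4, mapped with STAR 2.7.0 to a custom transcriptome and counted per locus with HTSeq 0.11.2, per the labels and the study's methods. The authors deposited raw counts per locus. Counts of reads on no feature (18.0% to 27.7% per fish) or ambiguous (0.838% to 1.85%) were left out. The values of 18.0% and 1.85% were both those of 18-week fish 1. Gene names and the percent of single cells with each locus come from the authors' deposited annotation table. The limit given for a count of 0 covers counting error only, and intervals of log2FC include the spread between fish.

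Loci were filtered with filterByExpr, scaled with TMM factors and fitted over all 30 fish with edgeR 4.0.16 (R 4.3.3, limma 3.58.1), with age as 3 levels, glmQLFTest and Benjamini-Hochberg adjustment over 13975 loci. Ratios used counts plus 0.5, and log2 CPM a prior count of 2. Ratios and relations were tested with 100000 permutations. The fit was tested on simulated data. Members, lists and named genes (all NDRG loci, the 5 loci most like NDRG1B by each measure, up to 5 called loci per pathway list, SGK1 and HIF1A) were chosen with earlier results of these data known. STC2A, BHLHE40, HK1, MYCN, GSK3AB, ARNT2, EGLN3 and the cone loci were named after their values were seen. Alternatives were other scalings, DESeq2 1.42.0, other filters, prior counts and pseudocounts, robust quasi-likelihood, fits of 20 fish, a replicate block, an RPE covariate and leaving out each fish.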

Additional observations from a re-analysis of the deposited data

Results flagged for a closer look

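Among 18 groups of 10 fish, 1 fish lay far from the other 9 in 3 cases by Dixon's test, which marks about 1 in 20 groups by chance. 18-week fish 1 had 266 CPM of NDRG3A, and the next fish had 147 CPM, a gap of 0.726 of the whole range. The same fish had 2010 CPM of NDRG4, and the next fish had 1060 CPM, a gap of 0.769 of the range. 6-week fish 1 had 4 counts of NDRG3B, and the next fish had 3, a gap of 0.5 of the range that amounts to 1 read.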

How the results depend on the processing

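With library size alone, NDRG1A passed both thresholds at 18 against 6 weeks (log2FC 1.14), NDRG2, NDRG3A and NDRG4 passed the FDR at 18 against 6 weeks with 0.35, 0.41 and 0.46 (edgeR FDR = 0.0148, 0.00829 and 0.00356) and NDRG3A at 18 against 12 weeks with 0.35 (edgeR FDR = 0.0424). Under that scaling the median of all loci was 0.13, 0.32 and 0.19 at 12 against 6, 18 against 6 and 18 against 12 weeks. The share of higher loci among those called was 67.1%, 39.2% and 25.2% with TMM, 84.3%, 82.5% and 58% with library size alone and 81.7%, 54.8% and 43.7% with the RPE covariate. Called loci numbered 70, 467 and 143, by FDR alone 308, 4076 and 1695, and without a filter 979 and 240 at the last 2 comparisons. Leaving out 1 fish gave 0.77 to 0.89 for NDRG1A at 18 against 6 weeks and 0.50 to 0.60 at 18 against 12 weeks, past the FDR in 30 of 30 fits each, and 2.21 to 2.44 for NDRG1B at 18 against 6 weeks. Without 18-week fish 1, which was added after seeing the data, 6 relations passed in place of 14, and r of the red blood cell list with NDRG3A was 0.58 in place of -0.20. With library size alone, 5 of the 14 no longer passed, those of NDRG3A with the RPE, Müller glia, rod and cone scores and of NDRG4 with the rod score. Other relations newly passed under that scaling. Among them were those of NDRG2 with the hypoxia (r = 0.71), rod (0.69) and ganglion cell (0.67) scores (permutation adjusted p = 0.00141, 0.00141 and 0.00167). The cause was not tested. Same-numbered fish of different ages correlated with a median of 0.01 across loci, and over 0.1 in 2 of 30 pairs. Of 30, 3 correlated best with their own number, so the numbers were not taken as pairs. NDRG1B and some scores nevertheless went with the number, as given below. With the replicate number as a block, 62, 481 and 139 loci were called. NDRG1A then had a log2FC of 0.85 at 18 against 6 weeks, and no call of a tested member changed. NDRG1B had 2.48 (SE 0.155) at that comparison, in place of 2.30 (SE 0.247) without the block.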

Other observations

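NDRG3B differed between the bulk and the single-cell data. It was listed in 7004 cells, more than the 3420 of NDRG1B, but had 94 counts over all 30 bulk libraries, as against 18298 for NDRG1B. Of the 4812 loci listed in at least 10% of cells, 39 (0.81%) had 94 bulk counts or fewer, and their median was 5849 counts. The source of this difference was not tested.

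The dependence of NDRG1B on the fish number was described after it was seen in the values. Over the 10 numbers, NDRG1B log2 CPM correlated between ages with r = 0.93 (6 and 12 weeks), 0.57 (6 and 18 weeks) and 0.56 (12 and 18 weeks), where the median over all tested loci was 0.02, -0.005 and 0.02. The mean of the 3 values was higher in 0.093% of the 13975 loci. NDRG1A had 0.65, 0.58 and 0.30, and NDRG4 had -0.03, -0.38 and -0.07. Of the scores, that of the cones had 0.84, 0.09 and 0.27, and that of retinal ganglion cells had 0.92, 0.76 and 0.82. NDRG1B and the cone score, which are related within ages, thus both had like values in same-numbered fish of 6 and 12 weeks.

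RORCB was among the loci most like NDRG1B after subtracting age means. BHLHE40 had the lowest r with NDRG1B among the 31 hypoxia loci (-0.70), although PDE6C of the cone list was lower still (-0.75). These values prompted a look at a list of 29 circadian clock loci afterwards, as a description. RORCB is itself in the clock list, so its r there is not separate from what prompted the list. After subtracting age means, RORCB (r = 0.84), NPAS2 (0.78), RORCA (0.74) and ARNTL (0.63), genes of the positive arm or activators of it, varied with NDRG1B. DBPA (-0.63), PER2 (-0.63), HLFA (-0.57) and DBPB (-0.56), which include the output factors of the clock, varied against it. Over all tested loci, 4.1% had an r past 0.5 in either direction. The time of day at which each fish was sampled is not given in the labels, and its part was not tested.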
